A study of Mus musculus with 6 samples.

Results

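The genes described here control the phosphorylation of eIF2alpha, the subunit of translation initiation factor eIF2 through which cells slow protein synthesis under stress. They were chosen by symbol: the kinases Eif2ak1, Eif2ak2, Eif2ak3 and Eif2ak4, the phosphatase subunits Ppp1r15a and Ppp1r15b, the GCN2 regulators Gcn1l1 and Impact, the substrate Eif2s1 and the exchange factor subunit Eif2b5. All 10 were found among 21671 named genes, and all 10 passed the filter on low counts, with 623 to 7198 reads per library. RNA came from subcutaneous tumours of CD1 nude ho mice, which lack a normal thymus. The mice had been injected with transformed hepatoblasts (embryonic liver progenitors). The tumours labelled ST18 knockdown were collected 4 h after an oral gavage with 300 µl of aqueous doxycycline at 200 mg/ml, whereas the tumours labelled wild type were untreated, with 3 libraries in each group. Per the labels' protocols, the injected cells carried TtRMPVIR shST18, a vector from which doxycycline induces a short hairpin RNA against St18. Doxycycline, the gavage and the hairpin therefore differ together between the groups and cannot be told apart. The labels do not say whether the hepatoblasts were 1 clone or whether each library came from its own animal, so the p-values measure the spread between these libraries, which may be technical.

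Cells that lack amino acids, fold proteins poorly, meet double-stranded RNA or run short of haem activate GCN2, PERK, PKR or HRI, each of which phosphorylates eIF2alpha. The phosphorylated factor blocks its own exchange factor eIF2B, so less initiator tRNA reaches ribosomes, while mRNAs with suitable upstream reading frames, such as Atf4, are translated more. Protein phosphatase 1 reverses the mark, guided by CReP, which is made constitutively, or by GADD34, which is induced by the stress response itself. RNA levels report on the amounts of these messages and not on kinase activity or on phosphorylated eIF2alpha, which were not measured.

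Promoter windows are shown for Ppp1r15a and Gcn1l1, the 2 genes of the group that passed the test below, and for Eif2ak2, the one whose libraries were all higher after doxycycline. They are taken from RefSeq (GRCm38.p6) and run from 250 bases before to 50 bases after the annotated start, 5′ to 3′ on the gene's strand. Capitals mark matches to the motifs searched. The windows lie at chr7:45526219-45526518 (minus strand) for Ppp1r15a, chr5:115565013-115565312 (plus strand) for Gcn1l1, and chr17:78882523-78882822 (minus strand) for Eif2ak2.
Ppp1r15a: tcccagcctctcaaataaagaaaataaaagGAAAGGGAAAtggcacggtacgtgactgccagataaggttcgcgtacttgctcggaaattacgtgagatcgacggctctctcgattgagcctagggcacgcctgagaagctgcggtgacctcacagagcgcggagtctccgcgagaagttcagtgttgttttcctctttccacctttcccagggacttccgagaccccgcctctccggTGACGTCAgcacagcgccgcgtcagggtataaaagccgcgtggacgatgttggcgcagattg
Gcn1l1: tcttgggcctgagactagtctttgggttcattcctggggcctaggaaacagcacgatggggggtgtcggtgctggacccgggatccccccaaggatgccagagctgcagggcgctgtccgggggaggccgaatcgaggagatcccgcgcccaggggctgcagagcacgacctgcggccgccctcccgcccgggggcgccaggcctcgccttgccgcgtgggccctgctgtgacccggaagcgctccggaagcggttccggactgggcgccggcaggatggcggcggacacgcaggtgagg
Eif2ak2: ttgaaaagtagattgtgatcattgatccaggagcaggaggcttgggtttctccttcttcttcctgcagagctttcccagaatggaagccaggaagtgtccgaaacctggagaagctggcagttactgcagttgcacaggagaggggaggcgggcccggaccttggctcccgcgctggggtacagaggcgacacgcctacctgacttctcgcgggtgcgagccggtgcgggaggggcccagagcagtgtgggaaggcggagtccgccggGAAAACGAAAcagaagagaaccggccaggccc

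Of the 10 genes, 8 matched a promoter window in the RefSeq table, and 5 motifs were searched on both strands. The Ppp1r15a window holds a full cyclic AMP response element, TGACGTCA, the palindrome bound by CREB and ATF family factors, with its first base 12 bases before the start. This element occurred in 1.79% of all 32851 windows. The same window holds GAAAGGGAAA, a match to the core of the interferon-stimulated response element (GAAA, any 2 bases, then GAAA again, in 3.44% of all windows), with its first base at -220 from the start. In Eif2ak2, a gene known to be induced by interferon, a match to that core, GAAAACGAAA, begins at base 19 after the start. The Eif2s1 window holds a match as well, at -212. The ATF4 and CHOP composite element TGATGNAA (3.97% of all windows), the endoplasmic reticulum stress element (CCAAT, any 9 bases, then CCACG, 0.119%) and the E-box CACGTG (7.15%) were not found in the windows of these genes. No matches overlapped. The Ppp1r15a and Gcn1l1 windows contain 26 and 28 CpG dinucleotides, against a median of 7 over all windows. Windows of the other matched genes contain 9 to 22, so they too were all above that median.

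The label was checked on St18, the hairpin's target, whose mean was higher and not lower in libraries so labelled. St18 had 34, 12 and 61 reads after doxycycline, against 12, 23 and 19 in untreated tumours (log2 fold change 1.03, 95% interval -0.22 to 2.29, edgeR adjusted p = 0.298, or 1.45 with adjusted p = 0.0386 without doxycycline replicate 2), so directions below are those of libraries carrying that label. Libraries held 12090309 to 16169043 reads in named genes. In a principal component analysis of log2(CPM + 1), the groups parted along component 1 (45.7% of variance), and doxycycline replicate 2 stood apart along component 2 (29.3%). In edgeR's quasi-likelihood test, 421 genes were higher after doxycycline (2.84% of 14809 tested) and 323 lower (2.18%), that is 56.6% of the called genes were higher, or 43.0% with offsets for GC content and length. Cell type markers differed too. Summed CPM of 15 skeletal muscle markers was 442 to 3055 after doxycycline and 82.0 to 228 in untreated tumours, with 11 higher. That count was 0 without any 1 untreated library, 2 without doxycycline replicate 1, 2 when genes of low count were kept, 1 in limma-voom and 6 with offsets for GC content and length, while DESeq2 called 14. Summed CPM of 12 fibroblast markers was 1891 to 2163 after doxycycline and 1483 to 1521 in untreated tumours, with 4 higher. For 12 macrophage markers the sums were 586 to 845 after doxycycline and 489 to 577 in untreated tumours, with 3 higher, and for 8 endothelial markers 411 to 471 after doxycycline and 309 to 366 in untreated tumours, with 2 higher. For 9 neutrophil markers the sums were 40.4 to 74.6 after doxycycline and 98.7 to 153 in untreated tumours, with 1 of 6 tested lower. Sums for 6 T, NK and B cell markers were 7.97 to 10.5 after doxycycline and 7.64 to 8.84 in untreated tumours, with none of 3 tested past the threshold. The fibroblast count was 2 without any 1 untreated library, and the macrophage, endothelial and neutrophil counts were 0. Without doxycycline replicate 1 the macrophage and neutrophil counts were 0, and without doxycycline replicate 3 the macrophage and endothelial counts were 0 and the neutrophil count 3. Without doxycycline replicate 2, 6 fibroblast and 2 neutrophil markers were called. No marker was at 0 in every library. The part of these shifts in the results below was not tested. In bulk tissue, fewer cells of a type and less RNA per cell cannot be told apart. Of the hepatoblast and biliary markers, Krt8, Krt18 and Sox9 were read in every library at 21.3 CPM or more, while the hepatocyte genes Alb (at most 0.151 CPM) and Hnf4a (at most 1.08 CPM) and the fetal liver gene Afp (at most 1.35 CPM) were near 0.

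Expression of 2 of the 10 genes fell after doxycycline, and that of none rose. The background share of genes called lower was 2.18%, and of genes called higher 2.84%. The 2 were Ppp1r15a and Gcn1l1. The remaining 8 did not pass the threshold of 0.05 on the adjusted p. Among all 10, 5 log2 fold changes were positive and 5 negative, with a median of -0.08 (0.01 over all genes tested). The median size was 0.18, close to the 0.21 of all tested genes. Libraries of the groups did not overlap in CPM for 3 genes that were lower after doxycycline (Ppp1r15a, Gcn1l1 and Eif2b5; background 14.4%) and for 1 that was higher (Eif2ak2; background 15.2%), or 29.6% of all tested genes in either direction. An unadjusted edgeR p under 0.05 was found for 3 of the 10, against 23.9% of all tested genes.

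**Figure D1:**
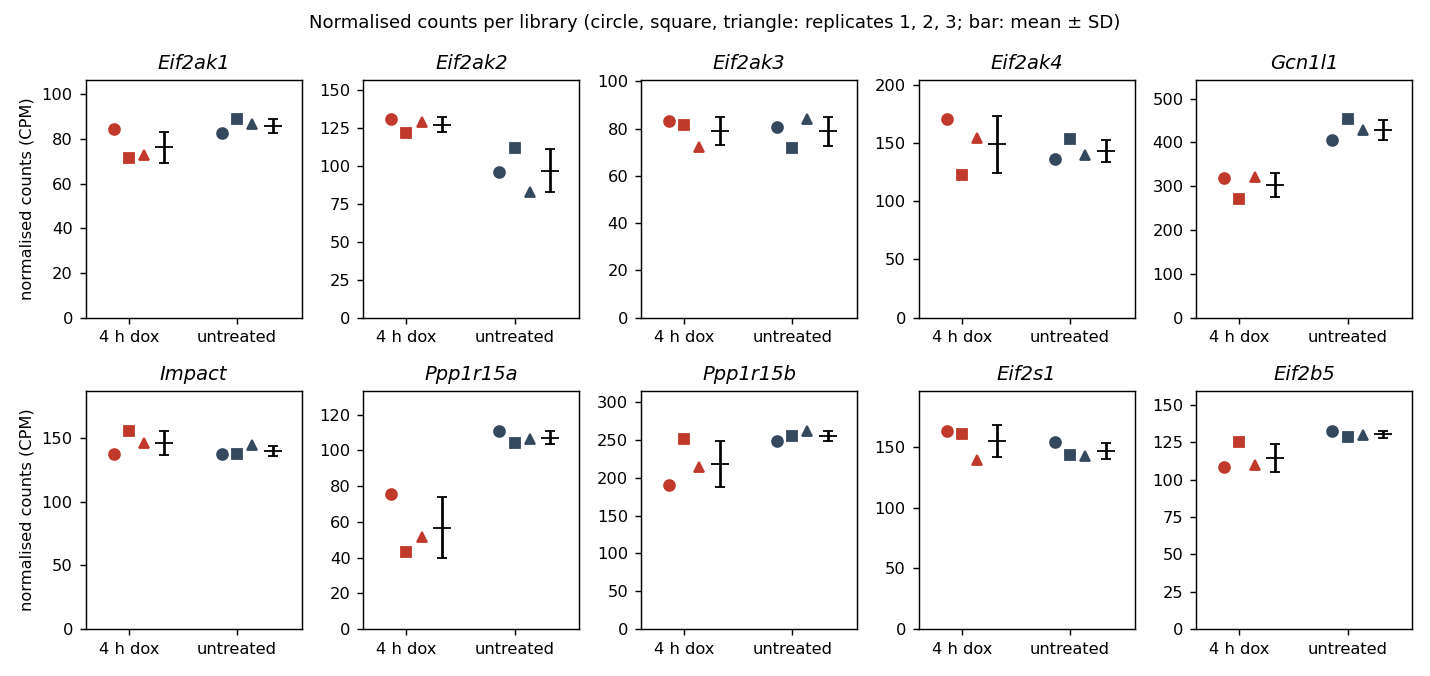
Normalised counts (CPM, linear axis from 0) of the 10 genes in each library, doxycycline in red on the left and untreated in dark blue on the right of each panel, with the mean ± SD of 3 libraries. The Ppp1r15a libraries lie between 42.8 and 75.6 CPM after doxycycline and between 104 and 111 CPM in untreated tumours, while the Eif2ak3 and Impact libraries of the groups intermix.

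Ppp1r15a, which encodes the stress-induced phosphatase subunit GADD34, showed the largest change among the 10 genes. It had 75.6, 42.8 and 51.6 CPM after doxycycline, against 111, 104 and 106 CPM in untreated tumours. Every doxycycline library was below every untreated one, and doxycycline replicate 1 lay closest to the untreated group. Its mean was 56.7 ± 17.0 CPM after doxycycline and 107 ± 3.57 CPM in untreated tumours (SD, n = 3 each), a fold of 0.528 (log2 -0.92, SE 0.19, 95% interval -1.34 to -0.50, edgeR adjusted p = 0.0324). The spread was wider after doxycycline. The call was lost when any 1 untreated library was left out (adjusted p 0.105 to 0.156, log2 fold change -0.90 to -0.96) and without doxycycline replicate 3 (-0.86, adjusted p = 0.101), each time with 5 libraries left. It held without doxycycline replicate 1 (-1.18) and without doxycycline replicate 2 (-0.76). Its transcript has a GC content of 55.7%, near the median of 55.0% among genes called lower (50.2% over all tested), and with offsets for GC content and length the change was -0.86 (adjusted p = 0.0305).

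Ppp1r15b encodes CReP, the constitutive counterpart of GADD34. Its levels were 191, 251 and 214 CPM after doxycycline, against 249, 255 and 262 CPM in untreated tumours. The groups overlapped through doxycycline replicate 2. The difference of -0.23 on the log2 scale did not pass the threshold (SE 0.10, 95% interval -0.45 to 0.00, edgeR adjusted p = 0.213). Without doxycycline replicate 2 it was lower (-0.34, adjusted p = 0.0193). That fit called 866 genes lower, against 323 with all libraries. Per kilobase of transcript, Ppp1r15a stood at 0.791, 0.339 and 0.481 of Ppp1r15b in the doxycycline libraries, against 0.889, 0.811 and 0.808 in the untreated ones. These ratios, which do not depend on library size, were lower in every doxycycline library than in any untreated one (exact permutation test over 3 against 3 libraries, two-sided p = 0.1, the smallest this design allows, and 1 of 8 within-library quantities compared). Their numerator is Ppp1r15a, already called lower, so they are not independent of that call. The catalytic subunits that both proteins recruit were among 3 genes with no call. Ppp1ca (-0.04), Ppp1cb (0.15) and Ppp1cc (-0.04) had adjusted p of 0.32 to 0.822 in edgeR.

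**Figure D2:**
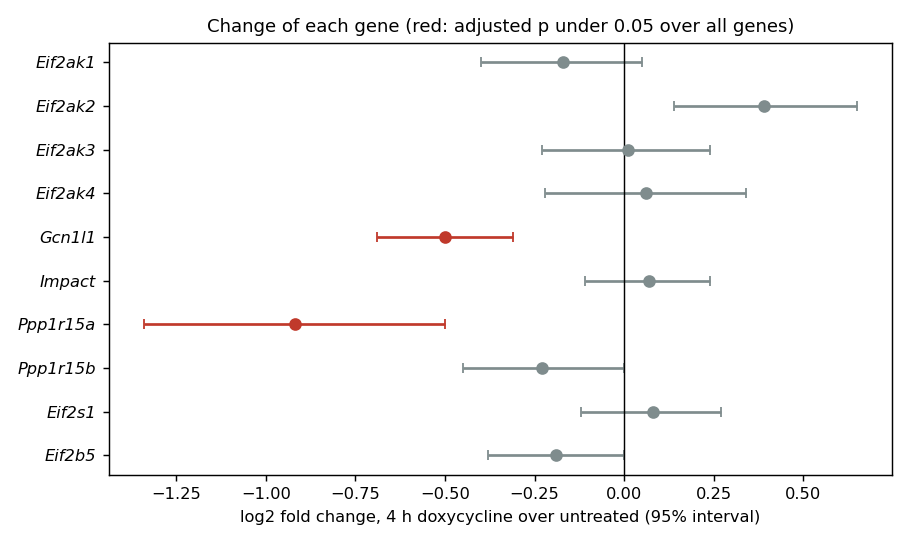
Log2 fold change of each of the 10 genes, 4 h doxycycline over untreated, with 95% intervals from the edgeR quasi-likelihood fit, and genes past an adjusted p of 0.05 in red. Ppp1r15a (-0.92) and Gcn1l1 (-0.50) lie left of zero, and Eif2ak2 (0.39) is the farthest to the right without passing the threshold.

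Gcn1l1 encodes GCN1, the ribosome-bound protein that GCN2 needs to sense uncharged tRNA and collided ribosomes. It had 318, 271 and 320 CPM after doxycycline, against 407, 453 and 427 CPM in untreated tumours. The groups stood apart, with doxycycline replicate 2 lowest. Means were 303 ± 27.6 CPM after doxycycline and 429 ± 23.1 CPM in untreated tumours (SD, n = 3 each), a level after doxycycline of 0.707 of the untreated one (log2 fold change -0.50, SE 0.08, 95% interval -0.69 to -0.31, edgeR adjusted p = 0.0208). Leaving out untreated replicate 1, 2 or 3 ended the call (adjusted p = 0.0923, 0.0775 and 0.114), although the log2 fold change stayed between -0.48 and -0.54. The call held without each doxycycline library in turn (-0.43 to -0.54). At 58.6% its transcript has the highest GC content of the 10 genes, and with offsets for GC content and length the change was -0.44 (adjusted p = 0.0182).

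GCN2 itself, the kinase encoded by Eif2ak4, did not pass the threshold. Its levels were 170, 122 and 154 CPM after doxycycline and 136, 154 and 140 CPM in untreated tumours, which overlapped (log2 fold change 0.06, 95% interval -0.22 to 0.34, edgeR adjusted p = 0.82). Doxycycline replicate 2 had the lowest level of all and doxycycline replicate 1 the highest. Impact encodes the protein that competes with GCN2 for GCN1 and so restrains the kinase. It was at 137, 156 and 146 CPM after doxycycline and 138, 137 and 144 CPM in untreated tumours, again with overlap (0.07, interval -0.11 to 0.24, adjusted p = 0.642). With offsets for GC content and length, both of these small values changed sign, to -0.03 for Eif2ak4 and -0.13 for Impact. Per kilobase of transcript, Gcn1l1 was 1.15, 1.37 and 1.28 times Eif2ak4 after doxycycline, against 1.85, 1.82 and 1.90 times in untreated tumours. The corresponding ratios to Impact were 1.02, 0.765 and 0.962 after doxycycline and 1.30, 1.45 and 1.30 in untreated tumours. Both ratios were lower in every doxycycline library (exact permutation test, two-sided p = 0.1 each, the smallest possible). They share the numerator Gcn1l1, already called lower, over genes that changed little, so they restate that difference and are not separate results.

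**Figure D3:**
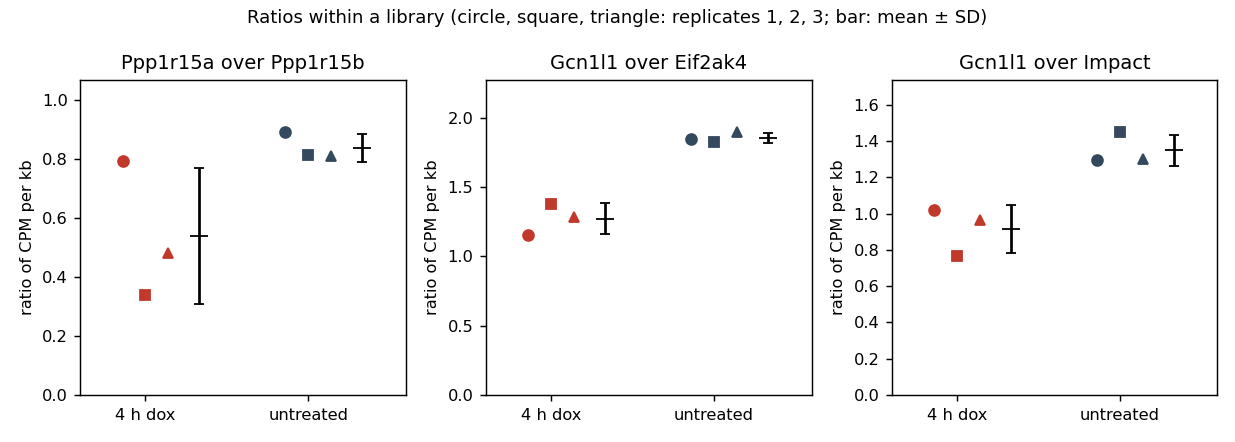
Ratios of CPM per kilobase of transcript within each library (linear axes from 0), doxycycline in red on the left and untreated in dark blue on the right, with mean ± SD of 3 libraries. Ppp1r15a over Ppp1r15b is 0.339 to 0.791 after doxycycline and 0.808 to 0.889 in untreated tumours, and both Gcn1l1 ratios are lower in all doxycycline libraries.

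None of the 4 kinases passed the threshold (background 5.02% called in either direction). Eif2ak2, which encodes the double-stranded RNA sensor PKR, came nearest. It had 131, 122 and 129 CPM after doxycycline, against 95.9, 112 and 83.1 CPM in untreated tumours. All doxycycline libraries were above all untreated ones, with untreated replicate 2 the closest. In edgeR the value was 0.39 on the log2 scale (SE 0.11, 95% interval 0.14 to 0.65, adjusted p = 0.0828). DESeq2 called it higher (0.38, adjusted p = 0.0409), as did edgeR without doxycycline replicate 2 (0.42, adjusted p = 0.0396). Those fits called 877 and 1244 genes higher, against 421 in edgeR with all libraries. With offsets for GC content and length the Eif2ak2 value was 0.22 (adjusted p = 0.25), over 1.5 times smaller.

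Eif2ak1, which encodes the haem-regulated kinase HRI, was at 84.4, 71.5 and 72.7 CPM after doxycycline and 82.5, 88.8 and 86.5 CPM in untreated tumours. Doxycycline replicate 1 fell inside the untreated range (log2 fold change -0.17, 95% interval -0.40 to 0.05, edgeR adjusted p = 0.316). Its annotated exons share 487 bases with Aimp2 on the opposite strand, a gene that was lower itself (-0.51, adjusted p = 0.0379). Strand use in the counting is not given in the sources used here, so reads in that stretch cannot be assigned to either gene with certainty. The same limit applies to 640 bases that Ppp1r15b shares with Gm26616 and 485 that Eif2ak3 shares with Gm43292. Both of these genes lie on the opposite strand and are not among the counted genes. Eif2ak3, which encodes PERK of the endoplasmic reticulum, had 83.3, 81.6 and 72.4 CPM after doxycycline and 80.6, 71.9 and 83.9 CPM in untreated tumours. Its groups intermixed entirely (0.01, interval -0.23 to 0.24, adjusted p = 0.983).

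Eif2s1, which encodes eIF2alpha itself, was at 164, 161 and 140 CPM after doxycycline and 154, 143 and 142 CPM in untreated tumours. The groups overlapped, and the log2 fold change of 0.08 (95% interval -0.12 to 0.27, edgeR adjusted p = 0.632) was -0.14 with offsets for GC content and length, without a call in either case. Eif2b5, the catalytic epsilon subunit of eIF2B, had 108, 125 and 110 CPM after doxycycline, against 133, 128 and 130 CPM in untreated tumours. Its groups did not overlap, although doxycycline replicate 2 lay just below the untreated libraries (-0.19, interval -0.38 to 0.00, adjusted p = 0.218). Without that library it was lower (-0.26, adjusted p = 0.0446), in a fit that called 866 genes lower, against 323 with all libraries.

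Of 9 other subunits and partners of eIF2 and eIF2B tested, 1 was lower and 0 higher (background 2.18% and 2.84%). Their median was -0.10 on the log2 scale. Eif2b4, the delta subunit of eIF2B, was the one that fell, with 42.4, 33.6 and 35.9 CPM after doxycycline against 57.0, 51.9 and 58.2 CPM in untreated tumours (-0.58, edgeR adjusted p = 0.0393). Eif2b3 (-0.30, adjusted p = 0.109), Eif2b2 (-0.28, adjusted p = 0.122) and Eif2b1 (-0.16, adjusted p = 0.453) did not pass. All eIF2B subunits thus had negative values. The call of Eif2b4 was lost with GC and length offsets (-0.49, adjusted p = 0.0644), where Eif2b3 was called instead (-0.41, adjusted p = 0.0429), and without any untreated library or doxycycline replicate 3 (adjusted p 0.101 to 0.206). With the replicate number as a block in the fit, Eif2b4 was not called either. The beta and gamma subunits of eIF2 did not pass, with Eif2s2 at -0.10 (adjusted p = 0.436) and Eif2s3x at -0.02 (adjusted p = 0.934). None of the 6 genes for other routes of initiator tRNA delivery was called, the smallest p being that of Eif5b (0.18, adjusted p = 0.332), followed by Mcts2 (-0.21), Eif2d (-0.10) and Eif2a (0.09). With offsets for GC content and length, Eif5b and Eif2a were below zero.

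Among 19 cofactors and inhibitors of the kinases, 1 was lower and 0 were higher (background 2.18% and 2.84%), with a median of -0.04. Adar, which edits double-stranded RNA and so limits what PKR can sense, had 98.4, 78.2 and 102 CPM after doxycycline, against 131, 160 and 144 CPM in untreated tumours (log2 fold change -0.64, edgeR adjusted p = 0.0271). Its libraries did not overlap. The call was lost without any 1 untreated library (adjusted p 0.094 to 0.133) and, narrowly, without doxycycline replicate 1 (0.0529) or 3 (0.051). With the replicate number as a block in the fit, Adar was not called either. The PKR-binding proteins Prkra (0.20, adjusted p = 0.435) and Tarbp2 (-0.21, adjusted p = 0.355) did not pass. Drg2 (-0.16, adjusted p = 0.326) and 0610009O20Rik (-0.13, adjusted p = 0.333) did not either. Nor did the chaperone Hspa5, which keeps PERK inactive (-0.11, adjusted p = 0.441), or Dnajc3, an inhibitor of PKR and PERK (0.08, adjusted p = 0.517). The ribosomal stalk genes Rplp0 (-0.02), Rplp1 (0.00) and Rplp2 (-0.07), whose products activate GCN2, had adjusted p of 0.822 to 0.993.

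Downstream, most targets of the integrated stress response were lower. Of 30 tested, 22 were lower and 0 higher (background 2.18% and 2.84%). The median was -0.69 on the log2 scale (0.01 over all genes), and all 30 values were negative. The list was drawn up with earlier results of these libraries known, so its direction is no independent evidence. Its summed level was 2906 to 2980 CPM after doxycycline and 4450 to 4538 CPM in untreated tumours. The smallest p-values belonged to Gdf15, a stress-induced hormone (-2.47, edgeR adjusted p = 0.00174), Atf5, a relative of Atf4 (-1.04, adjusted p = 0.00546), Aldh1l2, which acts in mitochondrial folate metabolism (-0.87, adjusted p = 0.00413), and Sesn2, a restrainer of mTORC1 (-1.46, adjusted p = 0.00655). Gdf15 was at 4.53, 5.77 and 4.70 CPM after doxycycline, against 29.5, 25.9 and 28.2 CPM in untreated tumours, with no overlap. Atf4, whose translation depends on eIF2alpha phosphorylation, was at 107, 110 and 102 CPM after doxycycline, against 135, 123 and 129 CPM in untreated tumours (-0.28, edgeR adjusted p = 0.0799), and did not pass. Ddit3, which encodes CHOP, a factor known to induce Ppp1r15a, had 22.3, 21.2 and 26.3 CPM after doxycycline, against 49.6, 43.9 and 48.7 CPM in untreated tumours (-1.03, adjusted p = 0.012). The lower calls in this list numbered 3 to 5 without any 1 untreated library. In the IRE1 and ATF6 branches, which respond to misfolded protein beside PERK, 4 of 12 genes were lower and 0 higher. The background was 2.18% lower and 2.84% higher, and the list's median was -0.32. The sensor Atf6 fell (-0.32, edgeR adjusted p = 0.0286). So did Sdf2l1 (-0.86, adjusted p = 0.0371), the chaperone gene Hyou1 (-0.62, adjusted p = 0.0164) and the degradation factor Herpud1 (-0.48, adjusted p = 0.0264). All 4 lost the call without any 1 untreated library or doxycycline replicate 3 (adjusted p 0.0506 to 0.211), and 2 of them, Herpud1 and Sdf2l1, without doxycycline replicate 1. With the replicate number as a block in the fit, only Hyou1 of them kept it. The sensor Ern1 (-0.72, adjusted p = 0.159) and Xbp1 (-0.32, adjusted p = 0.079) did not pass. Summed levels of muscle, fibroblast, macrophage, endothelial and neutrophil markers also differed between the same libraries, as stated above.

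**Figure D4:**
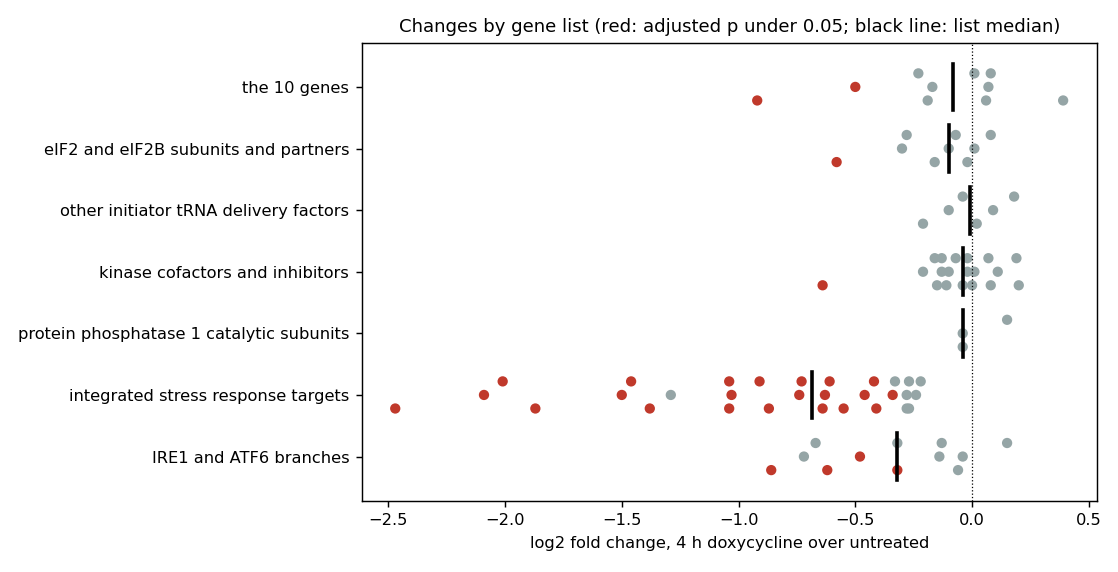
Log2 fold changes, 4 h doxycycline over untreated, for the 10 genes and 6 pathway lists, with 1 point per gene (red past an adjusted p of 0.05) and a black line at each list's median. The medians are -0.08 for the 10 genes and -0.69 for the integrated stress response targets, and the red points all lie left of zero.

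Levels can be compared between genes only per length, here as CPM per kilobase of the longest annotated protein-coding transcript. After doxycycline the order from high to low was Eif2s1 (45.5 ± 3.89), Eif2b5 (44.8 ± 3.71), Ppp1r15b (39.0 ± 5.47), Impact (39.0 ± 2.48), Gcn1l1 (35.4 ± 3.23), Eif2ak2 (29.5 ± 1.13), Eif2ak4 (28.1 ± 4.64), Ppp1r15a (20.2 ± 6.05), Eif2ak1 (17.6 ± 1.64) and Eif2ak3 (17.5 ± 1.30). Every neighbouring pair in that order overlapped in its libraries except Gcn1l1 and Eif2ak2. In untreated tumours the order was Eif2b5 (51.0 ± 0.879), Gcn1l1 (50.1 ± 2.70), Ppp1r15b (45.7 ± 1.21), Eif2s1 (43.1 ± 1.97), Ppp1r15a (38.1 ± 1.27), Impact (37.2 ± 1.04), Eif2ak4 (27.0 ± 1.75), Eif2ak2 (22.5 ± 3.31), Eif2ak1 (19.9 ± 0.735) and Eif2ak3 (17.5 ± 1.38). There, Gcn1l1 and Ppp1r15b, Eif2s1 and Ppp1r15a, Impact and Eif2ak4, and Eif2ak1 and Eif2ak3 stood apart, and the other neighbours overlapped. Ppp1r15a thus held rank 8 after doxycycline and rank 5 in untreated tumours.

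The kinases together amounted to 100.5, 85.9 and 91.9 CPM per kilobase after doxycycline and 84.9, 91.3 and 84.2 in untreated tumours, which overlapped (exact permutation test, two-sided p = 0.2). PKR made up 30.2%, 32.8% and 32.6% of that sum after doxycycline, against 26.2%, 28.3% and 22.9% in untreated tumours. HRI made up 19.4%, 19.3% and 18.3% after doxycycline, against 22.5%, 22.5% and 23.8% in untreated tumours. Both shares separated the groups, in opposite directions (p = 0.1 each in the exact permutation test, the smallest possible). As parts of the same sum, a higher share of one kinase lowers the others, so the opposite directions are not separate results. The Eif2ak1 libraries themselves overlapped in CPM. Among all tested genes, 29.6% separated the groups in CPM. The shares of PERK (p = 0.7) and GCN2 (p = 0.9) overlapped in the same exact permutation test. Reads of dense genes grew less than depth did in the 1 pair of libraries compared. The deepest untreated library held 1.23 times the reads of the shallowest, before TMM scaling. The median gene had 1.25 times as many at 0.05 to 0.1 reads per base, 1.23 times at 0.1 to 0.2 and 1.21 times at 0.2 to 0.5. At 0.5 to 1 it had 1.16 times as many, and above 1 it had 1.11 times. Whether fold changes of dense genes were compressed was not tested, and neither was the part of library composition in these values. Ppp1r15a (0.557 reads per base in untreated tumours), Gcn1l1 (0.736), Ppp1r15b (0.669), Eif2s1 (0.629), Eif2b5 (0.746) and Impact (0.545) lie between 0.5 and 1, and the kinases, at 0.255 to 0.397, between 0.2 and 0.5. After doxycycline Ppp1r15a, at 0.279, was in that lower range too.

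The genes whose pattern over the 6 libraries was most like that of Ppp1r15a were Tcof1, Cnnm4, Nfil3, Rasal1 and Dhx37, by the smallest root mean square difference of centred log2(CPM + 1) values (0.07 to 0.14). Tcof1, which encodes the nucleolar protein treacle, averaged 155 CPM after doxycycline and 278 CPM in untreated tumours (log2 fold change -0.84, edgeR adjusted p = 0.0622). Nfil3, a basic leucine zipper repressor, averaged 28.3 CPM after doxycycline and 54.9 CPM in untreated tumours (-0.96, adjusted p = 0.0226). For Gcn1l1 they were Cad, Bend3, Ncdn, Pear1 and Tmem109 (0.02 to 0.05). Cad, the enzyme that starts pyrimidine synthesis, averaged 260.0 CPM after doxycycline and 372 CPM in untreated tumours (-0.52, adjusted p = 0.0164), and was the closest of all. These lists describe likeness in 6 libraries and carry no test.

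**Figure D5:**
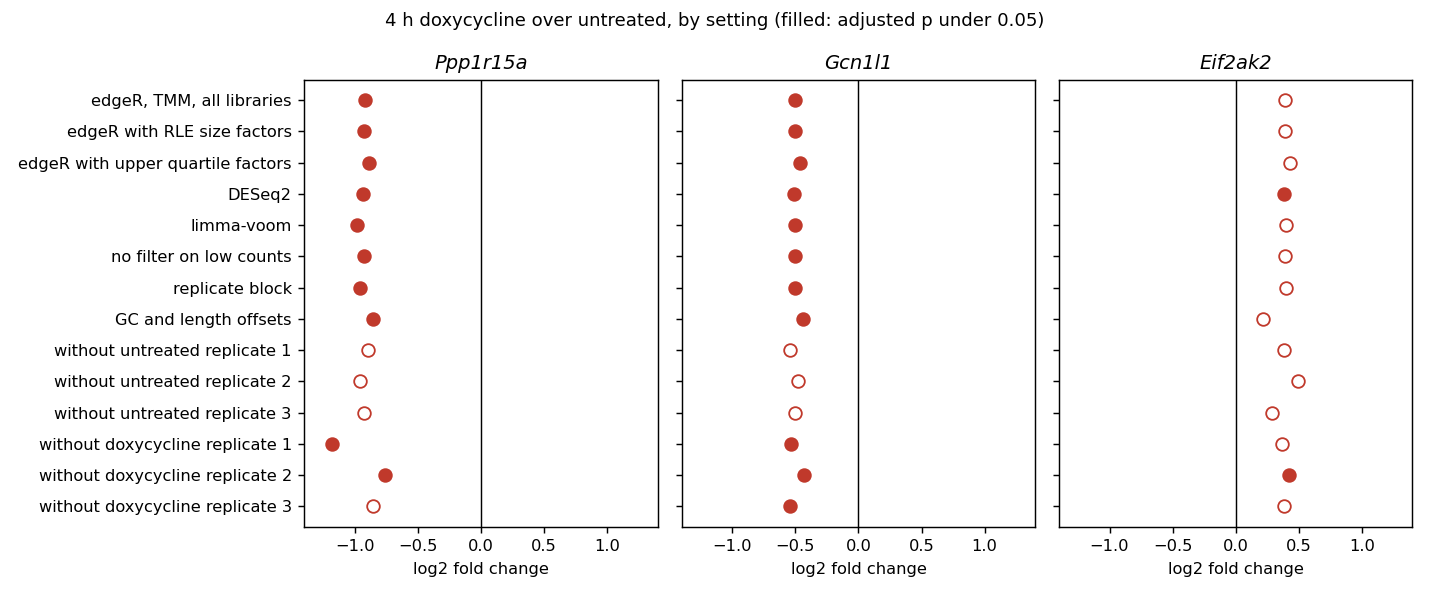
Log2 fold change of Ppp1r15a, Gcn1l1 and Eif2ak2, 4 h doxycycline over untreated, under the edgeR fit on all libraries and 13 alternatives, filled where the adjusted p is under 0.05. The sign of each gene is the same in every row, while Ppp1r15a loses the call in 4 rows, Gcn1l1 loses it in 3, and Eif2ak2 gains it in 2.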

How the data were processed

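Ribosomal RNA was removed (Ribo-Zero) and TruSeq v2 libraries were made from 6 tumour samples, per the labels' protocols. The authors deposited whole-number read counts for each gene. The submitters' processing notes name TopHat2 2.0.8, TopHat, HTSeq and the mm9 build, without saying what each did. How strand, multiply mapped reads and duplicates were treated is not given in the sources used here. Of 21761 rows, 90 carried no gene name (0.0361% to 0.0402% of reads) and were left out. Groups came from the sample titles.

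Counts were tested in R 4.3.3 with edgeR 4.0.16: filterByExpr, TMM scaling, robust quasi-likelihood test of doxycycline over untreated, two-sided, Benjamini-Hochberg adjustment over all 14809 tested genes, threshold 0.05. A standard error is the absolute log2 value over the root of the F statistic. CPM used TMM-adjusted library totals. The fits were tested on simulated counts. Transcript lengths and GC content came from GENCODE M21 (GRCm38, another build than the authors' mm9), matched by symbol or synonym for 99.0% of named genes, so levels per kilobase are approximate. Promoter sequences are RefSeq's. Replicates were compared by chi-square (5.17 to 29.8 per degree of freedom, above counting noise), so none was treated as a repeat deposit of another. This does not show that they came from separate animals.

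The 10 genes, the pathway and marker lists and the tests were chosen with earlier results of these data known. Named genes were the 10, St18 and up to 4 per pathway list by smallest p. The 5 genes most like each called gene (mean of at least 1 CPM, no predicted genes) were named too. Eif2b1, Eif2s3x, Eif2s3y, Prkra, Hspa5, Dnajc3, the Rplp genes, Aimp2, Atf4, Ddit3, Ern1 and Xbp1 were named for their role, after their values were seen. So were the hepatoblast and biliary markers Krt8, Krt18, Sox9, Alb, Hnf4a and Afp. Alternatives were RLE or upper quartile scaling, DESeq2 1.42.0, limma-voom 3.58.1, no filter on low counts, the replicate number as a block, offsets for GC content and length (mgcv 1.9.3), and leaving out each library.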

Additional observations from a re-analysis of the deposited data

How the results depend on the processing

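Ppp1r15a and Gcn1l1 kept their sign under all 13 alternatives (log2 fold change -1.18 to -0.76 and -0.54 to -0.43) and their call in 9 and 10 of them. The genes that passed numbered 2 lower and 0 higher of the 10, with 0 to 4 lower and 0 to 1 higher when 1 library was left out, and DESeq2 called 1 higher. Without untreated replicates 1, 2 and 3, 3 of the 10 had an unadjusted edgeR p under 0.05 each time. Over all genes, those fits gave such a p for 2414 of 15261, 2748 of 15089 and 2158 of 15146 tested. Without doxycycline replicates 1, 2 and 3 it was 3460 of 15092, 4663 of 15217 and 3099 of 14986. With all libraries it was 3535 of 14809. After adjustment, 11 to 1244 genes were higher and 12 to 866 lower when 1 library was left out. DESeq2 gave 877 higher and 790 lower, and limma-voom 251 higher. For the pathway lists 28 genes passed (3 to 36 with 1 library left out). For the marker lists 21 passed, against 8 in limma-voom, 13 with no filter on low counts, and 2 to 25 with 1 library left out. St18 was at 1.03 (0.575 to 1.45, called without doxycycline replicate 2). The causes were not tested.

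The labels number replicates alike in both groups. Same-numbered libraries did not deviate together (r = -0.001, -0.089 and -0.001), and unlike-numbered ones gave r of -0.171 to 0.149. With 3 libraries per group, these values cannot show whether the numbers pair the libraries. The replicate block gave 215 higher and 179 lower genes and counts of 0 and 2 among the 10. Under it Eif2b4 (adjusted p = 0.0709), Adar (0.0574), Herpud1 (0.0598), Atf6 (0.0638) and Sdf2l1 (0.0766) were not called, leaving 0 lower of the eIF2 and eIF2B partners, 0 of the kinase cofactors and 1 of the IRE1 and ATF6 branches (Hyou1), while the integrated stress response targets had 20 lower.

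Values near 0 changed sign without a call. Eif2ak3 was at -0.000285 with RLE factors, -0.00667 in DESeq2, and -0.0737 to 0.065 with 1 library left out. Eif2ak4 ranged over -0.0508 to 0.178 with 1 library left out. With GC and length offsets, Eif2ak3 was at -0.0369, Eif2ak4 at -0.0338, Eif2s1 at -0.14, Impact at -0.13, Eif5b at -0.0578, Eif2a at -0.0763, Ppp1cb at -0.113 and Ppp1ca at 0.021. With 1 library left out, Ppp1ca ranged over -0.112 to 0.0224 and Ppp1cc over -0.126 to 0.0335. Of 429 values for the 33 genes named by smallest p or by likeness, 336 kept direction and call, 72 lost the call, 14 gained it and 7 changed sign.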

Other observations

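The gamma subunit of eIF2 is encoded by a pair of genes on the sex chromosomes in mice, and both were read in every library. Eif2s3x, the X-linked copy, had 254, 269 and 235 CPM after doxycycline and 275, 236 and 256 CPM in untreated tumours. Eif2s3y, the Y-linked copy, had 87.0, 80.7 and 72.2 CPM after doxycycline and 86.6, 69.8 and 70.3 CPM in untreated tumours (log2 fold change 0.08, edgeR adjusted p = 0.73). The copies are related in sequence. How reads that match both were counted is not given in the sources used here, so their split is uncertain.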
